A study of Mus musculus with 4 samples.

Results

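The genes described here are BMP ligands, the Id genes and feedback genes of BMP signalling: Id1, Id2, Id3, Id4, Bmp2, Bmp4, Bmp7, Bambi, Smad6 and Msx2. They were taken by name, 10 of the 17016 genes with a symbol on the array, through the RefSeq accession of every probe, which gave 15 probes. RNA of mouse D3 embryonic stem cells, an established line, was compared on 4 whole mouse genome oligonucleotide arrays, each reading silenced cells (siNTE in the labels, transfected by lipofection with siRNA against Pnpla6) against control cells, in Cy3 and Cy5. The 4 RNA groups were silenced cells at 24 h, control cells at 24 h, silenced cells at 96 h and control cells at 96 h, each read in 2 channels with the dyes exchanged. Cells of every group were seeded as embryoid bodies and grown without LIF, a cytokine whose presence holds such cells in the undifferentiated state. What the control cells received is not in the labels, nor is whether replicates were grown as separate cultures. The p-values therefore rest on the spread between these arrays, which may be technical. In the test of silencing that spread was mostly shared over all genes. The p-value and interval of a gene thus hardly reflect how far its own arrays lay apart. The protein made from Pnpla6 is neuropathy target esterase, a membrane-bound phospholipase known to break down phosphatidylcholine.

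Bone morphogenetic proteins are secreted ligands of the TGF-beta family that bind pairs of type I and type II receptor kinases. The receptors phosphorylate Smad1, Smad5 and Smad9, which enter the nucleus with Smad4 and switch on target genes, the Id genes among them. Id proteins have a helix-loop-helix domain but no DNA-binding region, and they hold E proteins and their partners away from DNA. In mouse embryonic stem cells, BMP signalling through Id proteins together with LIF is known to hold back neural differentiation.

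The label of a stem cell culture was set against its markers. All 8 embryonic stem cell markers, Pou5f1, Sox2 and Nanog among them, were well above background in all 4 channels of each time, and 62.5% to 68.7% of the spots in a channel were well above background. The targeted gene was lower in silenced cells at 24 h: the log2 level of Pnpla6 was 10.11 and 9.81 in silenced cells, against 10.83 and 10.82 in control cells (replicates 1 and 2). That is 54.9% of the control level (log2 ratio -0.87, SE 0.06, limma adjusted p = 6.44e-12, n = 2 arrays), and a second probe averaged -0.57. The call was kept under 4 of 12 alternatives in processing: limma's adjusted p was 1 without the replicate block, 0.0714 with an offset of 16 in place of 50 in the background correction, 0.627 with the authors' deposited log ratios and 0.369 with the slide as a block. Without the block and with 1 array left out the call was lost whichever array it was. The ratio was then -1.002 without 24 h replicate 1 and -0.729 without 24 h replicate 2. It was below 0 under all 12 alternatives, but not all of them could turn it. Removing the block, dropping the filter on dim probes, blocking on the slide or leaving out a 96 h array leaves the 24 h ratio the same by design. At 96 h Pnpla6 was at 10.60 and 10.37 in silenced cells, against 10.48 and 10.48 in control cells, with a log2 ratio of 0.01 (95% interval -0.12 to 0.13). The ranges of the groups overlapped at 96 h.

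The sequences just before the start sites are shown for Id2, Id3 and Id4, which were called at 96 h, because BMP Smads are known to act through sites in Id promoters. RefSeq promoters on GRCm38.p6, with 250 bases before the start site, were searched for 6 of the 10 genes. None was at hand for Id1, Bmp2 and Bmp7, and Bambi was left out of the search. Capitals mark GGCGCC, a palindrome and the core of the BMP-responsive elements known in the mouse Id1 promoter, and CAGAC, the Smad element that was searched on both strands, where it reads GTCTG on the opposite one. The Id3 promoter lies on the plus strand of chromosome 4 (chr4:136143572-136143821), the Id2 promoter on the minus strand of chromosome 12 (chr12:25096093-25096342) and the Id4 promoter on the plus strand of chromosome 13 (chr13:48260866-48261115). Each is written 5′ to 3′ and ends at the base before the start site.
Id3: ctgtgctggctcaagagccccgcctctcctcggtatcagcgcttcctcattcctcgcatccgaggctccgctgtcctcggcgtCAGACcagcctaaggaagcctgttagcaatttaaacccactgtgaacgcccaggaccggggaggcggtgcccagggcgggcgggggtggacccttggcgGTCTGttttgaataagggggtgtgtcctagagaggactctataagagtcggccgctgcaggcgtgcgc
Id2: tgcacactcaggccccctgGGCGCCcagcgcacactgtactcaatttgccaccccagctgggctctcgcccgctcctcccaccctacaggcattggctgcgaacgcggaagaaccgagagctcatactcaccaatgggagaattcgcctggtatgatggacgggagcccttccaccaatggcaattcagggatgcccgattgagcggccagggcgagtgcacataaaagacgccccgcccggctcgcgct
Id4: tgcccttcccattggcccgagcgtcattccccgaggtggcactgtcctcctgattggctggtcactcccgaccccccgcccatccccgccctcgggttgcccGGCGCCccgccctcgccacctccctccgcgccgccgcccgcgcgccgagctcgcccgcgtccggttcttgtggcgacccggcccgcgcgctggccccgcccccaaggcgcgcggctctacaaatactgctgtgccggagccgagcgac
The Id3 window held 2 CAGAC matches, whose first bases lay 167 and 68 bases before the start site, and no GGCGCC. The Id2 and Id4 windows each held 1 GGCGCC, 231 and 148 bases before the start site, and no CAGAC. The windows of Bmp4, Smad6 and Msx2 held neither. Sequence further upstream was not searched, so a window without a match does not show that a gene lacks such sites. Among 32851 promoters of the same length, 9.6% held GGCGCC and 42.2% held CAGAC. A match describes the letters only, and the part of these sites in the mRNA levels was not tested.

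At 96 h, the mRNAs of Id1, Id2 and Id3 fell in silenced cells and that of Id4 rose, while neither the BMP ligands nor the feedback genes passed the test. Id1 was at 64.5% of the control level, Id3 at 66.1% and Id2 at 76.0%, and Id4 was at 123% of it. Of the 9 genes measured above background, 3 fell and 1 rose, against 13.5% of all 21751 genes tested that changed in either direction (6.86% lower and 6.68% higher). The median log2 ratio of the 9 was -0.03, and that of all genes was 0.00. A gene was called when its Benjamini-Hochberg adjusted p from limma, taken over all genes, was under 0.05.

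Id1 is the Id gene whose response to BMP is best described. Its log2 level at 96 h was 8.63 and 8.61 in silenced cells, against 9.13 and 9.37 in control cells. Both silenced channels lay below both control channels, and the silenced channels differed from each other by less than the control channels did. The log2 ratio was -0.63 (95% interval -0.76 to -0.50, adjusted p = 8.12e-10 with limma, n = 2 arrays). Replicate 1 gave -0.51 and replicate 2 gave -0.76. A second Id1 probe gave -0.49 and -0.58, a mean of -0.53.

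Id3 is known to be expressed along with Id1 in many embryonic tissues. It stood at 8.41 and 8.33 in silenced cells at 96 h, against 8.98 and 8.95 in control cells. The channels of each group lay close together and the groups did not overlap. The log2 ratio was -0.60 (95% interval -0.72 to -0.47, adjusted p = 2.43e-09 with limma, n = 2 arrays), with -0.57 and -0.62 on the 2 arrays, a fall of 1.51-fold.

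Id2 is the member known for binding the retinoblastoma protein in addition to E proteins. It was at 8.28 and 8.39 in silenced cells at 96 h, against 8.63 and 8.83 in control cells, again without overlap. The log2 ratio was -0.40 (95% interval -0.52 to -0.27, adjusted p = 1.36e-05 with limma, n = 2 arrays). The second Id2 probe gave a smaller ratio, -0.35 on replicate 1 and -0.05 on replicate 2, so the 2 probes disagreed on the size on replicate 2.

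Id4, known for its part in neural precursor growth, was the one Id gene that went the other way. Its level at 96 h was 8.23 and 8.26 in silenced cells, against 7.88 and 8.01 in control cells. The silenced channels were the higher ones on both arrays. The log2 ratio was 0.30 (95% interval 0.17 to 0.43, adjusted p = 0.000629 with limma, n = 2 arrays), and the second probe gave 0.27 and 0.37.

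**Figure D1:**
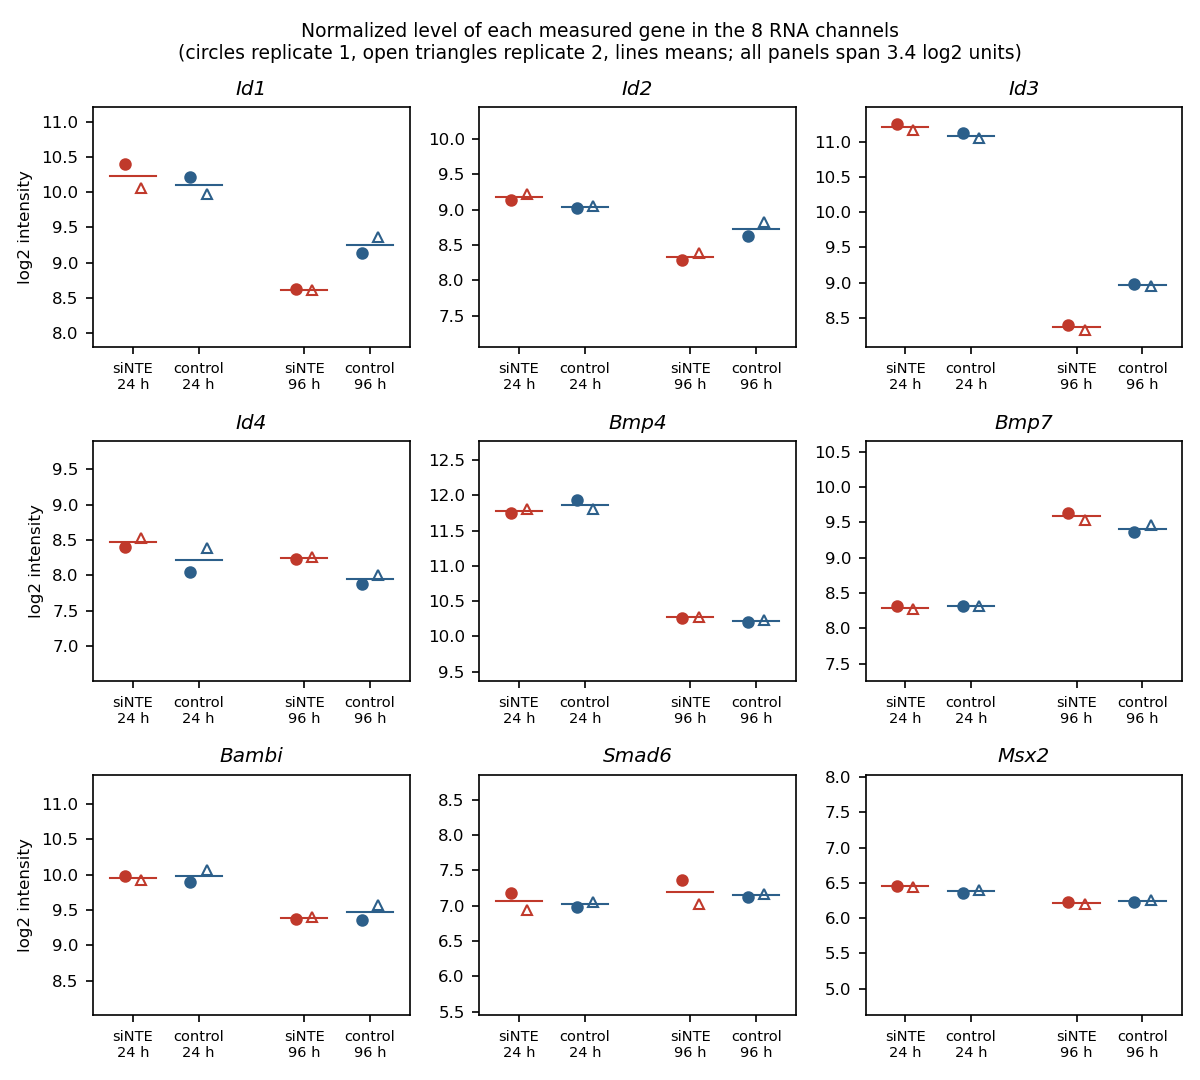
Normalized log2 intensity of the 9 measured genes (y axis) in each RNA group (x axis, silenced cells in red beside control cells in blue, 24 h then 96 h). Circles are replicate 1, open triangles replicate 2 and lines group means. At 96 h the silenced channels of Id1 (8.63 and 8.61) lie below its control channels (9.13 and 9.37), those of Id2 and Id3 do likewise, and those of Id4 lie above.

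The Id results rest on 2 arrays a time and on a fit with a term for dye orientation, and dye orientation and replicate number coincide, so that term blocks on the replicate as well. Without that block, limma's adjusted p was 0.0508 for Id1, 0.118 for Id2, 0.0293 for Id3 and 0.284 for Id4, with the same ratios, and with 1 array left out in addition only Id3 passed, at 0.0451 without either 24 h array, whereas without 96 h replicate 1 or replicate 2 it was at 0.173 and 0.238. In those fits Id1 was at 0.0574, 0.107 and 0.345, Id2 at 0.18, 0.443 and 0.589 and Id4 at 0.337, 0.818 and 0.633.

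Neither measured ligand gene passed the test between silenced and control cells at 96 h. Bmp4, which induces mesoderm in the mouse embryo, was at 10.26 and 10.28 in silenced cells, against 10.21 and 10.23 in control cells. The silenced channels were the higher ones by a small margin, and the log2 ratio of 0.05 (95% interval -0.07 to 0.18, adjusted p = 0.667 with limma) did not pass. The Bmp4 probe was printed 10 times on each array, and 9 and 10 of its 10 spots were above 0 on the 2 arrays. Spots on the same array read the same labelled RNA and are not replicates of a condition.

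Bmp7, a ligand needed for kidney and eye development in the mouse, was at 9.64 and 9.54 in silenced cells at 96 h, against 9.36 and 9.46 in control cells. The silenced channels were higher on both arrays, by 0.28 and 0.08. The log2 ratio of 0.18 (95% interval 0.05 to 0.31, adjusted p = 0.0546 with limma, n = 2 arrays) missed the threshold, and the second probe gave 0.20 and 0.26. With the mean of both probes in place of the brighter one, limma's adjusted p was 0.037. On replicate 1 all 9 Bmp7 spots used were above 0 and on replicate 2 9 of 10 were, with a standard deviation between spots of 0.04 to 0.09 over the 4 arrays.

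Bmp2, the closest relative of Bmp4, was not well above background in any of the 8 channels. Its 10 spots had median signals of 25.25 to 27 over a local background of 19 to 22.5 in Cy3, and of 63 to 68.5 over 60 to 66.5 in Cy5. No level or ratio is given for it.

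Of the feedback genes and the target gene, none passed at 96 h. Bambi, a receptor-like protein without a kinase domain that blocks BMP and TGF-beta receptors, was at 9.38 and 9.40 in silenced cells, against 9.35 and 9.58 in control cells. The groups overlapped, and the 2 arrays gave 0.02 and -0.17. The Bambi probe was printed 10 times too, with 6 of 10 spots above 0 on replicate 1 and 0 of 10 on replicate 2, so the spots of replicate 2 lay on one side of 0 while those of replicate 1 lay on both. A second Bambi probe was not well above background.

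Smad6, the inhibitory Smad that BMP signalling itself induces, had log2 ratios of 0.23 and -0.14 on the 2 arrays at 96 h, opposite in sign. Msx2, a homeobox gene induced by BMP in many embryonic tissues, had a ratio of -0.03 (95% interval -0.16 to 0.09). Msx2 was dim, with signals of 35.75 to 44.25 in Cy3 over a background of 20 to 22.5, and the offset added to all signals makes folds of so dim a gene too small.

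**Figure D2:**
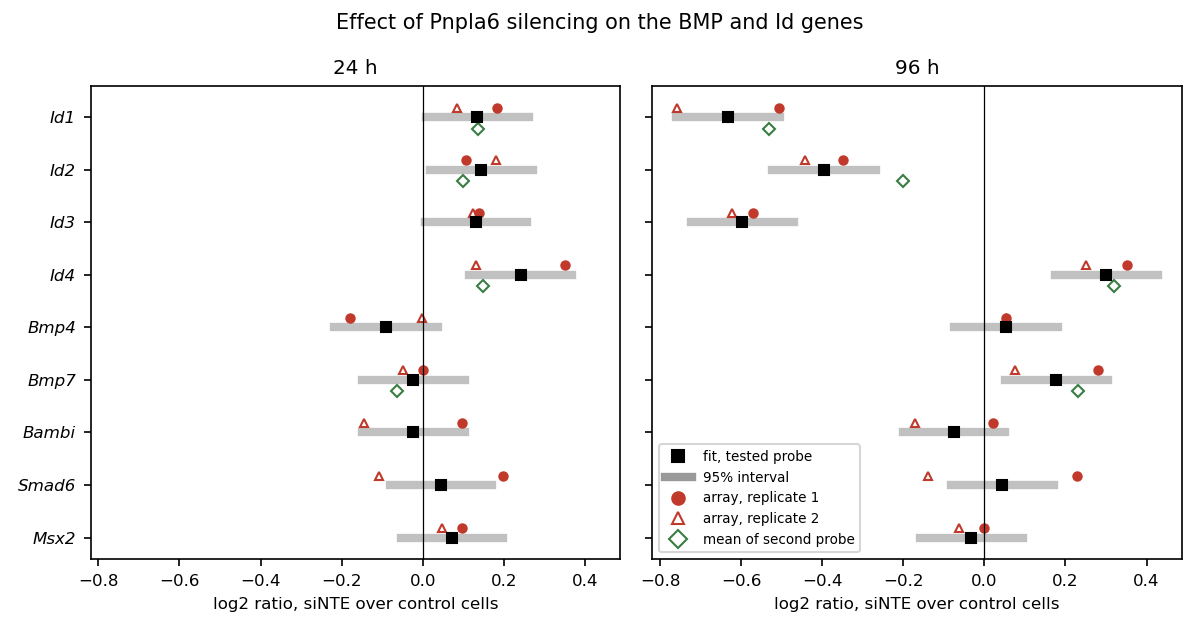
Log2 ratio of silenced over control cells (x axis) for the 9 measured genes (y axis) at 24 h (left) and 96 h (right). Squares are fitted means, grey bars 95% intervals, circles and triangles the 2 arrays and diamonds the mean of a second probe where one was measured. At 96 h Id1 (-0.63), Id3 (-0.60) and Id2 (-0.40) lie left of 0 and Id4 (0.30) right of it, and their intervals do not reach 0.

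At 24 h, when Pnpla6 itself was low, none of the 9 genes passed, against 0.395% of all genes tested. The 4 Id genes had small positive ratios: 0.13 for Id1, 0.14 for Id2, 0.13 for Id3 and 0.24 for Id4, and these were the 4 members with an unadjusted p under 0.05 in limma. Their adjusted p was 0.606, 0.538, 0.617 and 0.0778 in the same order. Both arrays gave a positive ratio for each of them.

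Channel by channel at 24 h, Id1 was at 10.40 and 10.06 in silenced cells, against 10.22 and 9.97 in control cells, and these ranges overlapped. Id3 was at 11.25 and 11.17 in silenced cells, against 11.12 and 11.04 in control cells. Id2 was at 9.14 and 9.23 in silenced cells, against 9.03 and 9.05 in control cells. The silenced channels of Id2 and Id3 were above the control channels, by less than the 96 h differences and in the other direction. Id4 was at 8.41 and 8.53 in silenced cells, against 8.05 and 8.39 in control cells, likewise without overlap.

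Bmp4 was at 11.75 and 11.80 in silenced cells at 24 h, against 11.93 and 11.81 in control cells. Its ratio was -0.18 on replicate 1, where 0 of the 10 spots were above 0, and 0.00 on replicate 2, and the mean of -0.09 did not pass (adjusted p = 0.858 with limma, n = 2 arrays). Bmp7 was at 8.32 and 8.27 in silenced cells, against 8.31 and 8.32 in control cells, and the groups overlapped. Bambi, Smad6 and Msx2 had ratios of -0.02, 0.05 and 0.07. On replicates 1 and 2, Bambi gave 0.10 and -0.14 and Smad6 gave 0.20 and -0.11, the same order of signs as at 96 h.

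The effect of silencing differed between the times for Id1, Id2 and Id3. The ratio at 96 h minus that at 24 h was -0.77 for Id1 (SE 0.09, adjusted p = 7.13e-08), -0.73 for Id3 (SE 0.09, adjusted p = 1.8e-07) and -0.54 for Id2 (SE 0.09, adjusted p = 4.68e-05) in limma's test of the difference over all 4 arrays. So 3 of 9 genes passed, all downward, against 7.08% of all genes (4.17% downward, 2.91% upward). For Id4 the difference was 0.06 (95% interval -0.12 to 0.24, adjusted p = 0.794), from ratios of 0.30 at 96 h and 0.24 at 24 h. Bmp7 had a difference of 0.20 (adjusted p = 0.201) and Bmp4 one of 0.14 (adjusted p = 0.421). Without the replicate block none of the 3 passed with limma (3 members had an unadjusted p under 0.05), and with 1 array left out in addition none did either. The difference of Id1 was then -0.72 without 24 h replicate 1, -0.82 without 24 h replicate 2, -0.89 without 96 h replicate 1 and -0.64 without 96 h replicate 2, with adjusted p-values of 0.906, 0.441, 0.185 and 0.558.

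Between 24 h and 96 h, several of these genes changed far more than silencing changed them. In silenced cells 5 of the 9 fell and 1 rose, against 37.1% of all genes changed (17.7% lower, 19.5% higher). In control cells 4 fell and 1 rose, against 36.1% of all genes (16.9% lower, 19.3% higher). These comparisons run between arrays and used single-channel levels. The silenced and control changes share their arrays with the ratios above and are not independent of them.

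Id3 fell most among the Id genes: by 2.84 on the log2 scale in silenced cells (7.18-fold, limma adjusted p = 4.6e-06) and fell by 2.12 in control cells (4.33-fold, adjusted p = 8.18e-06). All channels of Id3 at 96 h lay below all channels at 24 h. Id1 fell by 1.61 in silenced cells (3.06-fold, limma adjusted p = 0.000112) and fell by 0.84 in control cells (1.80-fold, adjusted p = 0.00221). Its second probe gave -1.45 in silenced cells and -0.78 in control cells.

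Id2 fell by 0.85 in silenced cells (1.80-fold, limma adjusted p = 0.0011), while in control cells its change of -0.31 did not pass (adjusted p = 0.0737). The difference between those changes is the one tested above, -0.54. Id4 had changes of -0.22 in silenced cells (adjusted p = 0.18) and -0.28 in control cells (adjusted p = 0.0997). The second Id4 probe gave 0.26 and 0.09, opposite in sign to the first, so no direction over time can be given for Id4.

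Among the ligands the changes over time ran in opposite directions. Bmp4 fell by 1.50 in silenced cells (2.84-fold, limma adjusted p = 6.97e-05) and fell by 1.65 in control cells (3.13-fold, adjusted p = 4.4e-05), all 4 channels at 96 h lying below all 4 at 24 h. Bmp7 rose by 1.30 in silenced cells (2.45-fold, limma adjusted p = 0.000102) and by 1.09 in control cells (2.14-fold, adjusted p = 0.000219), and its second probe gave 1.40 in silenced cells, and 1.07 and 1.14 on the 2 replicates of control cells. For both ligands the sets of channels at the 2 times did not overlap.

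Bambi fell by 0.57 in silenced cells (limma adjusted p = 0.00271) and fell by 0.51 in control cells (adjusted p = 0.00432). Smad6 changed by 0.13 in both and Msx2 by -0.23 in silenced cells (adjusted p = 0.0636) and -0.13 in control cells (adjusted p = 0.277), none of them past the threshold. Smad6 levels over all 8 channels ran between 6.94 and 7.36.

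With 1 array left out, the falls of Id3 in both kinds of cell and of Bmp4 in control cells passed whichever array it was. For the others limma's adjusted p then ran, in silenced cells, from 0.0455 to 0.0817 for Id1, 0.0757 to 0.114 for Id2, 0.0363 to 0.053 for Bmp4, 0.039 to 0.0846 for Bmp7 and 0.269 to 0.333 for Bambi, and in control cells from 0.101 to 0.256 for Id1, 0.0458 to 0.103 for Bmp7 and 0.26 to 0.503 for Bambi, with the directions kept.

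**Figure D3:**
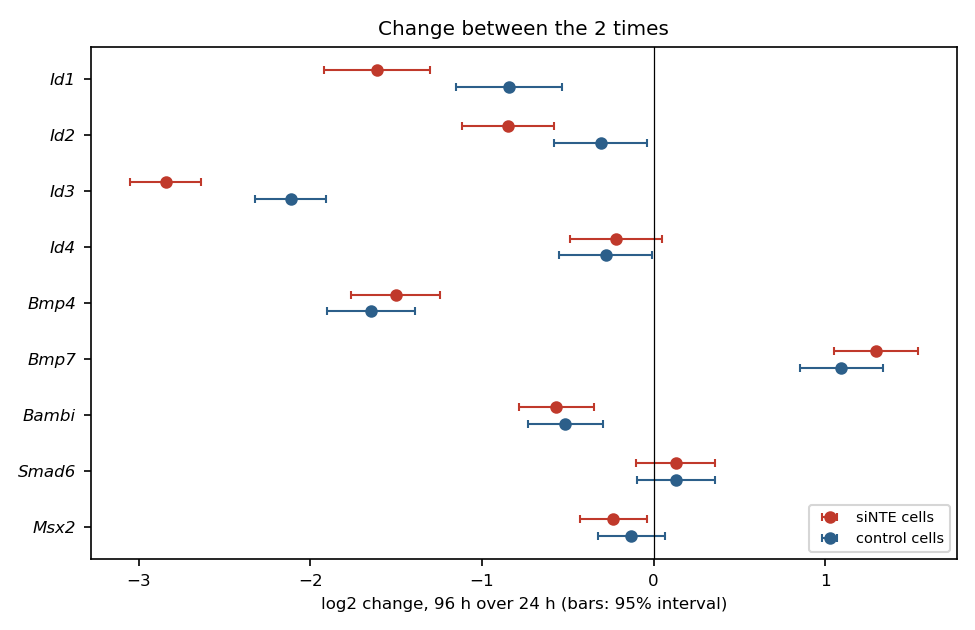
Log2 change from 24 h to 96 h (x axis) of the 9 measured genes (y axis) in silenced cells (red, upper) and control cells (blue, lower), with 95% intervals as bars. Id3 (-2.84 in silenced and -2.12 in control cells) and Id1 (-1.61 and -0.84) lie further left in silenced cells, Bmp4 (-1.50 and -1.65) lies left and Bmp7 (1.30 and 1.09) right in both.

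Beyond the 10 genes, 57 other genes of the pathway were listed, of which 56 were on the array and 40 were tested. At 96 h 3 of the 40 rose and 2 fell in silenced cells, beside the 13.5% of all genes given above, and their median ratio was 0.03. At 24 h none passed with limma, and the median was 0.00. The smallest p there was that of Rgma, a BMP co-receptor (ratio 0.23, adjusted p = 0.11).

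Of 10 receptors and co-receptors tested, Bmpr2, the BMP type II receptor, fell by 0.25 at 96 h (limma adjusted p = 0.00414). The arrays gave -0.21 and -0.29. Eng, a co-receptor best known from endothelial cells, rose by 0.33 (adjusted p = 0.000199), with 0.48 and 0.18. Its level was 9.79 and 9.59 in silenced cells, against 9.32 and 9.41 in control cells, and the silenced channels were the higher ones.

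Of the Smads and their regulators, 1 of 7 passed at 96 h: Smurf2, a ubiquitin ligase for Smads, at -0.21 (limma adjusted p = 0.0192). On the single arrays it was at 0.03 (replicate 1) and -0.46 (replicate 2), so this call rests on replicate 2, without which the value was 0.03. Smad1, Smad5 and Smad4 had ratios of 0.07, 0.02 and 0.00 and did not pass. Among the 6 other BMP-induced transcription factors tested, Tbx3, a T-box factor also active in embryonic stem cells, rose by 0.36 (limma adjusted p = 0.000129). Replicate 1 gave 0.25 and replicate 2 gave 0.47.

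Of the 3 E proteins that Id proteins bind, Tcf4 rose by 0.21 at 96 h (limma adjusted p = 0.0172). Its ratio was 0.05 on replicate 1 but 0.38 on replicate 2. A second Tcf4 probe averaged -0.04, so its probes disagreed in sign. None of the 5 other BMP ligands tested passed (smallest p Bmp8b, ratio 0.16, adjusted p = 0.0843), and none of the 9 extracellular antagonists did (smallest p Fst, which binds activins and BMPs, ratio -0.18, adjusted p = 0.0621). Without the replicate block none of these 5 calls among the pathway genes remained in limma, where Bmpr2, Eng, Smurf2, Tbx3 and Tcf4 had adjusted p-values of 0.324, 0.298, 0.722, 0.22 and 0.6. With 1 array left out in addition none of them passed: without 96 h replicate 1 their ratios were -0.29, 0.18, -0.46, 0.47 and 0.38, and without 96 h replicate 2 they were -0.21, 0.48, 0.03, 0.25 and 0.05.

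**Figure D4:**
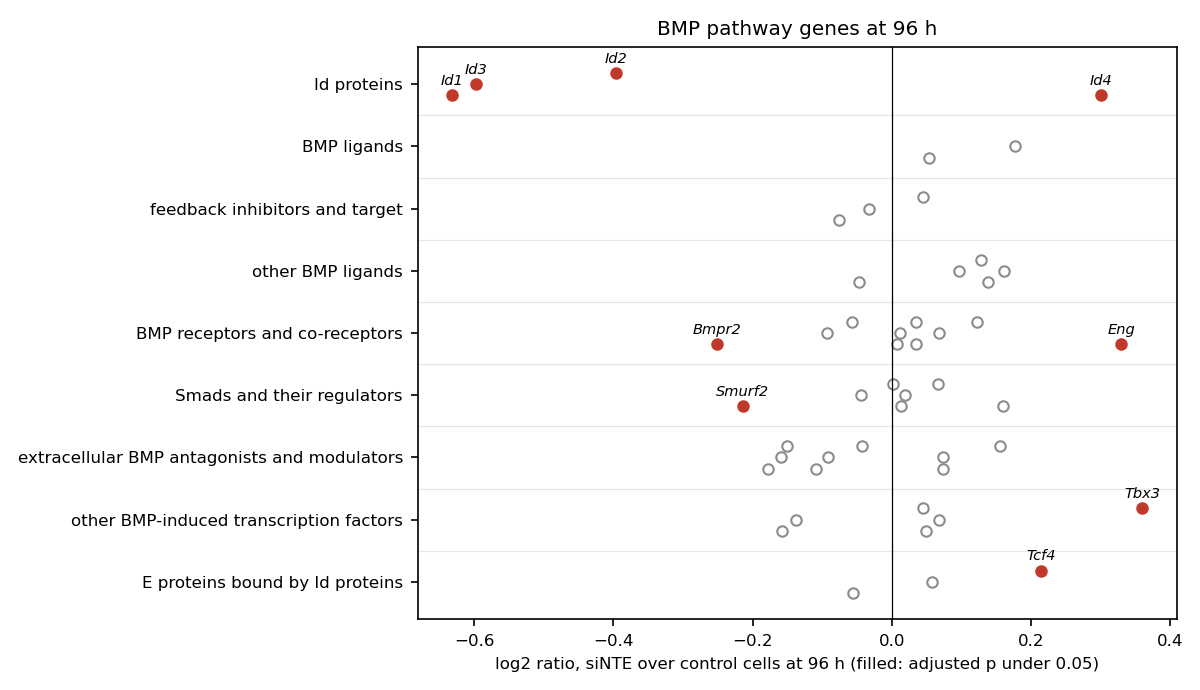
Log2 ratio of silenced over control cells at 96 h (x axis) for each measured gene of the BMP pathway, by role (y axis). Filled red points passed limma's test at an adjusted p under 0.05 and are named. The Id genes reach from -0.63 to 0.30, and the other named genes lie between -0.25 (Bmpr2) and 0.36 (Tbx3).

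Some cell type markers were called at 96 h, beside the 13.5% of all genes given above. The marker calls come from the fit with the replicate block, without which the calls over all genes went from 2947 to 106. Of the 7 feeder fibroblast markers tested, 5 fell and 1 rose, and their summed intensity was 3061 to 3101 in silenced cells, against 3458 to 3757 in control cells; Col3a1, Lum and Postn were not above background. Of 8 embryonic stem cell markers 4 rose and 1 fell (sums of 241087 to 372503 in silenced cells, against 199130 to 369742 in control cells). The marker that fell was Pou5f1, with a log2 ratio of -1.05, and the largest of the 4 rises was 0.37 for Esrrb. Among 7 endoderm markers 2 rose (1000 to 1038, against 787 to 817, with Ttr not above background). Among 7 neural markers 1 fell (2103 to 2232, against 2408 to 2440, with Neurog2 not above background). Of 6 trophoblast markers 1 rose and 2 fell (36081 to 37778, against 42696 to 43212, with Elf5 and Tpbpa not above background). Those that fell were Krt8 (log2 ratio -0.78) and Krt18 (-0.22), and the one that rose was Plet1 (0.53). Of 6 mesoderm markers none passed with limma (730 to 765, against 736 to 754, with Mixl1 and Foxf1 not above background). A sum follows the brightest genes of its list. The part of the markers in the Id results was not tested. In RNA of whole cultures, fewer cells of a type and less Id mRNA per cell cannot be told apart.

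Over the 8 channels, with levels centred within each dye, the members most like Id1 were Id3 (Pearson r = 0.97) and Id2 (0.96), and Bmp7 ran opposite to it (-0.95). Msx2, which was dim, had 0.94, Bambi 0.93 and Bmp4 0.91, while Id4 had 0.36 and Smad6 -0.68. Among 2324 other genes with a spread of comparable size, the most like Id1 were Psmb10, a proteasome subunit (0.99), Atic, an enzyme of purine synthesis (0.99), Cisd2 (0.99), Bzw1 (0.99) and Anxa1, a phospholipid-binding protein (0.98). These values describe 8 channels that share 4 arrays and fall into 2 times, and the change over time dominates them. At 96 h the silenced-to-control ratios of these 5 genes ran from -0.47 for Psmb10 to -0.20 for Anxa1.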

How the data were processed

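Total RNA of silenced and control D3 cells was labelled and hybridised to 4 arrays with Cy3 and Cy5, with the dyes exchanged between replicates 1 and 2 of each time, per the labels. Per the file headers, the authors ran Feature Extraction 10.7.1.1 by Agilent on the scans (10.7 per the submitters' processing notes, which also name limma). The deposited files hold spot and background signals as intensity in arbitrary units. They also hold a log10 ratio per spot, Cy5 divided by Cy3, and, from the software's error model of a single array, a p-value for it that the authors deposited and that entered no test here. The deposited series table equals these log10 ratios turned to silenced over control, within 4.97e-06. The authors' table was used as an alternative only. Only 2 arrays per time limit the precision.

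From the median spot and background signals, R 4.3.3 and limma 3.58.1 gave background-corrected (normexp, offset 50) and loess-normalized log2 ratios; control spots (1639 of 45018) had weight 0. One spot per probe was formed by averaging, leaving out non-uniform spots (1) and population outliers (96 to 118 per array). Probes had to be well above background on both arrays of at least 1 RNA group (28079 of 41174 probes). The brightest probe stood for a gene, giving 21751 genes tested, 13132 of them with a symbol. RefSeq accessions named 24375 probes, and 16799 without one kept their identifier. No spot was saturated.

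Silencing was fitted on the log2 ratios of all 4 arrays with a mean per time and a dye term, which leaves 1 residual degree of freedom beside 36.1 prior degrees of freedom shared over genes. Dye orientation coincides with the replicate number. Deviations of same-numbered arrays correlated at 0.7 between the times, and whether the numbers also mark shared cultures is not in the labels. Changes over time were fitted on single channels after Aquantile normalization (lmscFit, dye term, intraspot correlation 0.896, 3 residual degrees of freedom). Tests were two-sided and adjusted by Benjamini-Hochberg over all genes. Of the slides, the second carried 96 h replicate 2 alone, and the other arrays were on the first.

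The members and lists were chosen with earlier results of these data known. Named are all members, pathway genes that passed in a silencing comparison or had the smallest p of their list, Pnpla6, and the 5 genes most like Id1, with a spread of at least 50% of that of Id1; the Smads named beside them were chosen after their values were seen. The fits were tested on simulated data. Alternatives were the model, offset, filter, probe rule, normalization, slide, each array left out, the deposited log10 ratios and outlier spots kept; the last was added after seeing the data. Promoters came from RefSeq (GRCm38.p6); the arrays are annotated on another build, so no array coordinates are given.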

Additional observations from a re-analysis of the deposited data

Results flagged for a closer look

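The effect of silencing differed between 96 h and 24 h, by limma's test of the difference, for 3 of the members. The difference was -0.77 for Id1 (-0.63 at 96 h and 0.13 at 24 h), -0.73 for Id3 (-0.60 and 0.13) and -0.54 for Id2 (-0.40 and 0.14). The sign of the ratio was the same on both arrays of a time for each of these genes.

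It also differed for 5 of the 40 other pathway genes tested (2 upward, 3 downward), against 7.08% of all genes. The difference was -0.33 for Bmpr2 (limma adjusted p = 0.0148), 0.42 for Eng (adjusted p = 0.0014) and 0.36 for Tbx3 (adjusted p = 0.0128). Rgma differed by -0.32 (ratio -0.09 at 96 h and 0.23 at 24 h, limma adjusted p = 0.018), with ratios of opposite sign on the 2 arrays at 96 h. Dand5, a secreted antagonist of the Cerberus family, differed by -0.28 (ratio -0.16 at 96 h and 0.12 at 24 h, limma adjusted p = 0.0437). None of these differences passed without the replicate block, where limma called no gene and 1297 of 21751 had an unadjusted p under 0.05, or with any 1 array left out in addition.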

How the results depend on the processing

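Id1 to Id4 kept the direction of their 96 h ratio under all 12 alternatives. Limma called Id1, Id2 and Id4 in 5 of the 12 and Id3 in 8. Not all 12 could turn the direction. Removing the block, dropping the filter on dim probes or leaving out a 24 h array leaves the 96 h ratio the same by design. With the slide as a block that ratio rests on 96 h replicate 1 alone. With a 96 h array left out it is the ratio of the other 96 h array, whose sign is given above. The 24 h fall of Pnpla6 was called in 4 of the 12. Members called at 96 h were 4, and 1 without the replicate block, 0 with the authors' deposited log ratios (4 with an unadjusted p under 0.05), 0 with the slide as a block and no dye term (4 likewise) and 0 to 1 with 1 array left out. For the difference between times, 3 members were called, and 0 without the replicate block, with the deposited ratios, with the slide as a block and with any array left out (3, 4, 3 and 3 with an unadjusted p under 0.05). Within the first slide, with the dye term kept and no test, the 96 h ratios were -0.56 for Id1, -0.31 for Id2, -0.58 for Id3 and 0.24 for Id4.

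Over all genes, the 24 h count of 86 became 0 without the block, with an offset of 16, with the deposited ratios, with the slide as a block and with any array left out (216, 1617, 1571, 190 and 190 to 292 genes with an unadjusted p under 0.05), 9 with the mean of all probes and 42 with median centring. The 96 h count of 2947 became 106 without the block (15 higher, 91 lower), 1798 with median centring (of these 1126 were higher and 672 lower), 1053 when the offset was 16, 0 with the deposited ratios (3846 with an unadjusted p under 0.05), 32 with the slide as a block (1 higher, 31 lower) and 29 to 113 with 1 array left out. The count of 1540 for the difference became 0 without the block, with the deposited ratios, with the slide as a block and with any array left out (1297, 2937, 1080 and 844 to 1080 with an unadjusted p under 0.05), 271 with an offset of 16, 981 with the mean of all probes and 737 with median centring. Over time, leaving out 1 array gave 281 to 479 genes and 2 to 3 members in silenced cells and 410 to 573 genes and 2 to 3 members in control cells; these fits had fewer arrays and used the intraspot correlation of all 4.

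The 96 h ratio of Smurf2 turned to 0.0335 with the slide as a block, and ran from -0.4621 without 96 h replicate 1 to 0.0335 without 96 h replicate 2, and the change of Smad5 over time in silenced cells to -0.014 with the mean of all probes. No other called value turned its direction. The cause of the lost calls was not tested. Dim signal limits Msx2, Smad6 and Bmp2.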
